A study of Mus musculus with 8 samples.

Results

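The genes described here are 36 genes of mitosis and the G2/M transition, the step at which a cell that has copied its DNA enters division. They were taken by name from the 55471 gene entries of a count table, all 36 were found, and all 36 were among the 22153 genes with enough counts to be tested. The list was not drawn from measured values, although it was put together with earlier results of these data known. The study compared mice lacking Tet1, an enzyme that oxidises methylated cytosine in DNA, with wild-type (WT) mice, by bulk RNA sequencing of cells sorted by fluorescence from the femur. The sorted populations were skeletal stem cells (SSC), which give rise to bone, cartilage and stroma, and bone cartilage stromal progenitors (BCSP), a more advanced stage of the same lineage. There were 4 groups of 2 libraries: Tet1 knockout (KO) SSC, WT SSC, KO BCSP and WT BCSP. In each group 1 library was titled round 2 and 1 was titled round 1. All 8 came from neonates 3 to 5 days old. The labels give B6;129S4-Tet1tm1.1Jae/J as the strain of KO and WT mice alike. The allele is known as a germline deletion, present in every cell of the animal. Sex, pooling of animals, and whether the rounds were separate litters are not given in the sources used here, so the p-values measure only the spread between these libraries, which may be technical. What a round was (a sort, an extraction or a sequencing run) is likewise not stated.

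Cells enter mitosis when CDK1, bound to B-type cyclins, is switched on. Aurora and Polo-like kinases, kinesin motors and the kinetochore then build the spindle and attach chromosomes to it, a checkpoint holds the anaphase-promoting complex (APC/C) back until every chromosome is attached, and cytokinesis splits the cell. Most of the genes that encode this machinery are transcribed late in the cell cycle under the MuvB core complex with B-MYB and FOXM1, and are repressed in resting cells by the same core in the DREAM complex, so that their RNA is widely read as a measure of cycling cells. In the growing femur, dividing cells include the columnar chondrocytes of the growth plate and the progenitors of bone and stroma. In bulk samples fewer cycling cells and less of these RNAs per cycling cell cannot be told apart, and that holds for every value below.

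Promoters of these genes are shown first, because the sequence elements known to time this transcription can be read in them. RefSeq promoter windows of build GRCm38.p6, from 250 bases before to 50 bases after the start of each gene, were matched by symbol for 32 of the 36 genes (Aurkb, Ccna2, Kif20a and Tpx2 had no entry), and the first entry was used where a symbol had more than 1. Windows were searched on both strands for 3 motifs. The first, TTTGAA, is the cell cycle genes homology region (CHR) that the MuvB core binds. The second is its variant spelled TTCGAA. The third, CCAAT, is the box bound by NF-Y. The CHR letters stood in 26 of the 32 windows (81.2%) and in 18.1% of all 27025 promoters. The variant stood in 3 (9.38%), against 1.57% of all promoters, and the CCAAT box in 25 (78.1%), against 37.9%. Windows with the CHR or its variant together with a CCAAT box numbered 23 (71.9%), against 7.70% of all promoters. Of the 34 CHR matches, 27 lay within 50 bases of the start, and 1 pair of matches of different motifs overlapped. The median window held 24 CpG dinucleotides, against 7 over all promoters, and the median ratio of observed to expected CpG was 0.883, against 0.388. Windows of other gene lists, described below, were searched too. The CCAAT box stood in 72% of 25 windows of S phase genes and 64% of 75 of other mitosis and G2/M genes. It stood in 61.5% of 13 of p53 targets and CDK inhibitors, and in 43.8% of 16 of regulators of G2/M transcription. The CHR letters stood in 12%, 50.7%, 15.4% and 31.2% of these lists, in the same order. Matches are letters in a window and say nothing of binding. The sequences below are those of the 4 genes whose RNA passed the test between rounds, and of Cdc20, the gene with the highest level per length. They run 5′ to 3′ along the gene from 250 bases before the start to 30 bases after it. Capitals mark matches of the 3 motifs on either strand, so that a CCAAT box on the other strand reads ATTGG.
Cdk1 (chr10:69352883-69353162, minus strand): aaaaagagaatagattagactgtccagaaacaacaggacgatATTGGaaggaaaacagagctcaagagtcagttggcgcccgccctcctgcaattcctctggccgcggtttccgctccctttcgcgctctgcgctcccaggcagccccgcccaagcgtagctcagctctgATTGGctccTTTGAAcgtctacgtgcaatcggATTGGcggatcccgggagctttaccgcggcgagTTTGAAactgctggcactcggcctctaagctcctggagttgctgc
Top2a (chr11:99024160-99024439, minus strand): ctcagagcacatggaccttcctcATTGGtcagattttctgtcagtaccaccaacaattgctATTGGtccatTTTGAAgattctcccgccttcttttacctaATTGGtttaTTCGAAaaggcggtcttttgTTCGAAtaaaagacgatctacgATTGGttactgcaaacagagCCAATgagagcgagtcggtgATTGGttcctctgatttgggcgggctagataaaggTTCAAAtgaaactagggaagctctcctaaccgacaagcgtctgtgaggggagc
Bub1 (chr2:127831830-127832109, minus strand): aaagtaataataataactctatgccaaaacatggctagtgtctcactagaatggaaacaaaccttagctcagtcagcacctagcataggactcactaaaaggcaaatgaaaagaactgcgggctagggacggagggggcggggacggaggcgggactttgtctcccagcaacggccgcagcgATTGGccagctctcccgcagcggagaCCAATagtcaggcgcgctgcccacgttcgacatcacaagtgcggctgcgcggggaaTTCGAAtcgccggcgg
Nusap1 (chr2:119618048-119618327, plus strand): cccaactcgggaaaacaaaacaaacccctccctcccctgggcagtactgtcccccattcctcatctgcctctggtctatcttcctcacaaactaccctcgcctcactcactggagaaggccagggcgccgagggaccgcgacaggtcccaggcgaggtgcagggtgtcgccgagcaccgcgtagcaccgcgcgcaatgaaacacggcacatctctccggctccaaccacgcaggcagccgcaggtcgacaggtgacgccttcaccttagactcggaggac
Cdc20 (chr4:118437314-118437593, minus strand): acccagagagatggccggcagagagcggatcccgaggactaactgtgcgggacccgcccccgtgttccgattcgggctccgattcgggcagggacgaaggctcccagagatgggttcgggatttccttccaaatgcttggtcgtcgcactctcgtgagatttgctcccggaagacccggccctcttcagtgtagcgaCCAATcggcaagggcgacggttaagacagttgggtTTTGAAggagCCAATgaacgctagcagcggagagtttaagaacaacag
Cdk1 held the CHR letters 71 and 15 bases before its start, with 3 CCAAT boxes upstream of the start. Top2a held CHR and variant matches interleaved with CCAAT boxes. The Bub1 window held the variant and no CHR. The Nusap1 window, although its RNA passed the test like that of the others, held none of the 3 motifs.

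Library totals ran from 104782544 to 168004119 counts, so that even the lowest count of any of the 36 genes in any library was 333. Levels are given as CPM, counts scaled to a common library size by TMM (a factor per library that corrects for composition; CPM is counts per 1e6 counts), and as RPKM, the same per kilobase of exon, where genes are compared with each other. Tet1 itself stood at 11.8 and 7.26 CPM in KO SSC of rounds 2 and 1, against 19.6 and 15.6 CPM in WT SSC of the same rounds. In BCSP it stood at 12 and 10.8 CPM in KO BCSP of rounds 2 and 1, against 11 and 21.6 CPM in WT BCSP of the same rounds, so the KO library was not the lower one in round 2. The allele is known to remove an internal part of the gene, and whole-gene counts are then a weak check of the label. The sort markers bore out a difference between the populations in Eng (endoglin, by which BCSP are told from SSC), at 2.53 to 3.89 CPM in SSC and 25.7 to 50.5 CPM in BCSP. In all libraries the defining gene of cartilage, Col2a1, took 24.7% to 30.6% of counts.

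Cdc20, the activator of the APC/C, had the highest level per length of the 36 genes, 17.1 RPKM over the 8 libraries. Next came Cdca3, a trigger of mitotic entry (9.88), Ccnb2, a B-type cyclin (8.51), Top2a, the topoisomerase that untangles chromosomes (7.36), Mki67, which coats mitotic chromosomes (6.78), and Ube2c, the APC/C's ubiquitin-conjugating enzyme (6.68). At the low end stood Ttk, the kinase that starts the spindle checkpoint (0.786 RPKM), Ndc80 (0.836) and Kif20b (0.94). Neighbours in this order are close beside their spread over libraries: Cdc20 spanned 21.1 to 46.0 CPM and Top2a 36.2 to 98.2 CPM.

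The 36 genes moved largely as a block from library to library. Their mean log2 CPM was 3.10 in KO SSC, 3.61 in WT SSC, 3.49 in KO BCSP and 3.83 in WT BCSP of round 2, against 4.32 in KO SSC, 4.29 in WT SSC, 3.79 in KO BCSP and 4.21 in WT BCSP of round 1. The KO SSC library of round 2 was the lowest of all, and held the lowest level of 30 of the 36 genes. Highest levels were spread over KO SSC of round 1 (13 genes), WT SSC of round 1 (11), WT BCSP of round 1 (8) and WT BCSP of round 2 (4). Across the 630 pairs of these genes the median Pearson correlation of log2 CPM over the 8 libraries was 0.850, with a range of -0.147 to 0.996; the points share libraries and scaling, and the values are a description. Nuf2, part of the NDC80 complex that grips microtubules, followed the mean of the other 35 most closely (r = 0.974). Mki67 followed it least (0.470), then Cenpe (0.623), Kif20b (0.693) and Cenpf (0.696).

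**Figure D1:**
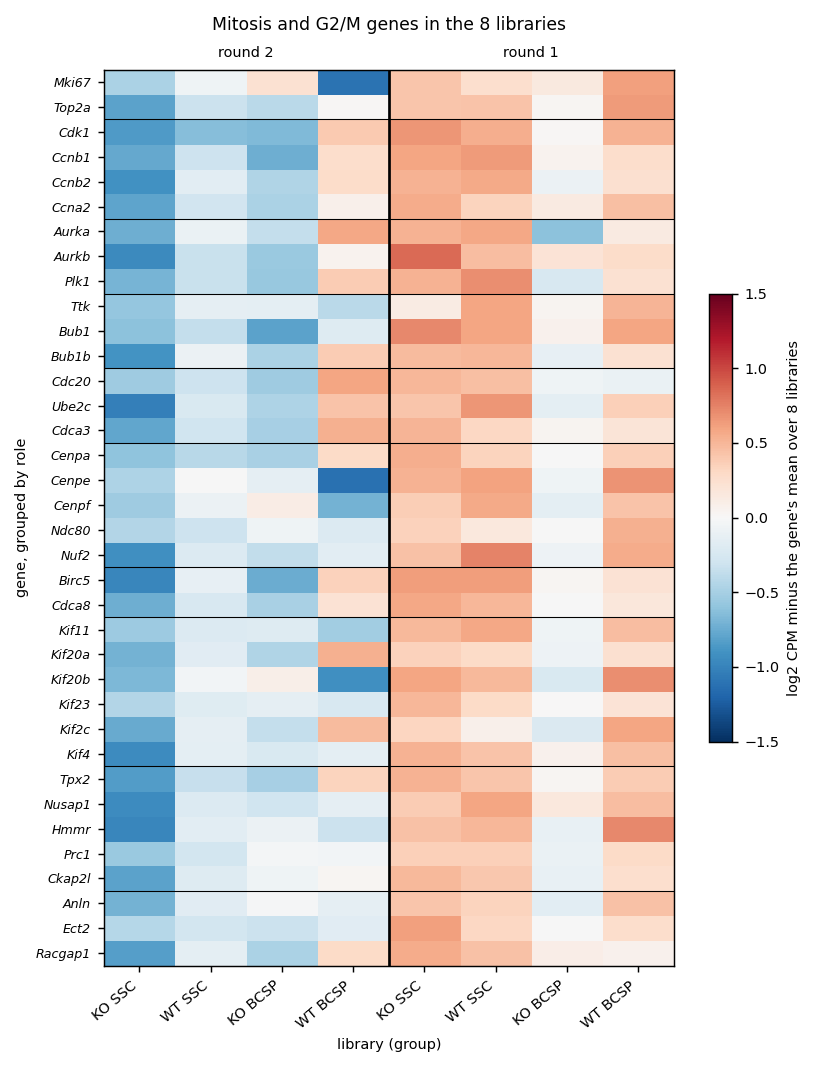
Each row is 1 gene and each column 1 library, and the colour is log2 CPM minus the gene's mean over the 8 libraries. Most of the blue (low) cells lie in the round 2 columns, deepest in KO SSC, while WT BCSP of round 2 is mixed, with Mki67, Cenpe and Kif20b low and Aurka, Cdc20 and Kif20a high.

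Of the comparisons made, that between the rounds was the one in which genes of the list passed the test. In a model with a term for each group, all 36 genes were lower in round 2 than in round 1 (log2 fold change below 0), as were 49.9% of all genes tested, and the median was -0.63, against 0.00 for all genes. Bub1, Top2a, Nusap1 and Cdk1 passed the test in edgeR's quasi-likelihood fit (adjusted p under 0.05 over all genes tested), and all 4 fell. That is 11.1% of the 36 genes, and 0.664% of all genes were called lower. At an unadjusted p under 0.05, 32 of the 36 were lower, against 4.85% of all genes. For 12 genes every round 2 library lay below every round 1 library, against 3.61% of all genes.

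Among the genes of chromatin and proliferation, Top2a stood at 36.2 CPM in KO SSC, 50.7 in WT SSC, 47.8 in KO BCSP and 64.1 in WT BCSP of round 2. In round 1 the values were 84.4 CPM in KO SSC, 84.8 in WT SSC, 64.3 in KO BCSP and 98.2 in WT BCSP. Every round 2 library was below every round 1 library, although WT BCSP of round 2 (64.1 CPM) and KO BCSP of round 1 (64.3 CPM) nearly met. It averaged 49.7 ± 11.5 CPM in round 2 and 82.9 ± 14 CPM in round 1 (SD, n = 4 each), a log2 fold change of -0.75 ± 0.16 (SE; edgeR adjusted p = 0.0289). Mki67, the antigen behind Ki-67 staining, stood at 46.3 CPM in KO SSC, 61.6 in WT SSC, 75.5 in KO BCSP and 29.8 in WT BCSP of round 2. Round 1 libraries held 85.6 CPM in KO SSC, 76.7 in WT SSC, 71.5 in KO BCSP and 98.7 in WT BCSP. From library to library it followed the block least: WT BCSP of round 2 was its lowest library, and KO BCSP of round 2 was above KO BCSP of round 1. Mki67 was still lower in round 2 in KO SSC, WT SSC and WT BCSP. Its log2 fold change was -0.71 ± 0.23 (edgeR adjusted p = 0.200), beside a median of -0.63 for the 36 genes.

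Of the cyclins and their kinase, Cdk1, the engine of mitotic entry, stood at 14.3 CPM in KO SSC, 16.5 in WT SSC, 16.3 in KO BCSP and 33.9 in WT BCSP of round 2. The round 1 levels were 40.8 CPM in KO SSC, 37.6 in WT SSC, 26 in KO BCSP and 37 in WT BCSP. KO SSC, WT SSC and KO BCSP of round 2 were all below 17 CPM, WT BCSP was not, and the groups overlapped. Cdk1 averaged 20.3 ± 9.15 CPM in round 2 and 35.3 ± 6.43 CPM in round 1 (SD, n = 4 each), which is -0.87 ± 0.21 on the log2 scale (SE; edgeR adjusted p = 0.0476). Ccnb2 stood at 6.63 CPM in KO SSC, 11.1 in WT SSC, 9.06 in KO BCSP and 15 in WT BCSP of round 2. Against that stood round 1, with 17.8 CPM in KO SSC, 18.3 in WT SSC, 11.7 in KO BCSP and 14.6 in WT BCSP. In SSC it was lower in round 2 in both genotypes, while in WT BCSP the rounds hardly differed. Its log2 fold change was -0.62 ± 0.22 (adjusted p = 0.237), and those of Ccnb1, the other main partner of CDK1, and Ccna2, the cyclin of S phase and G2, were -0.78 and -0.73.

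The mitotic kinases differed among themselves. Aurkb, the kinase of the chromosomal passenger complex, stood at 6.57 CPM in KO SSC, 10.1 in WT SSC, 8.68 in KO BCSP and 13.3 in WT BCSP of round 2. For round 1 they were 22.9 CPM in KO SSC, 17.5 in WT SSC, 14.7 in KO BCSP and 15.4 in WT BCSP. The rounds did not overlap, and the log2 fold change was -0.89 ± 0.22 (edgeR adjusted p = 0.0639). Aurka, which matures centrosomes and builds the spindle, stood at 5.42 CPM in KO SSC, 8.39 in WT SSC, 7.03 in KO BCSP and 13.5 in WT BCSP of round 2. In round 1 the values were 13 CPM in KO SSC, 13.5 in WT SSC, 5.88 in KO BCSP and 9.94 in WT BCSP. In both BCSP groups Aurka was higher in round 2 and in both SSC groups it was lower, so its value over the groups was the smallest of the 36 (-0.31 ± 0.26, adjusted p = 0.756). Plk1, the Polo-like kinase, had -0.60.

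In the spindle checkpoint, Bub1, the kinase that recruits the other checkpoint proteins to kinetochores, stood at 4.38 CPM in KO SSC, 5.25 in WT SSC, 3.84 in KO BCSP and 5.86 in WT BCSP of round 2. Round 1 libraries held 11 CPM in KO SSC, 10.1 in WT SSC, 6.99 in KO BCSP and 10.1 in WT BCSP. No round 2 library reached the lowest of round 1. It averaged 4.83 ± 0.898 CPM in round 2 and 9.55 ± 1.76 CPM in round 1 (SD, n = 4 each), the strongest change of the list at -0.98 ± 0.19 on the log2 scale (SE; edgeR adjusted p = 0.0154). Ttk stood at 2.5 CPM in KO SSC, 3.4 in WT SSC, 3.37 in KO BCSP and 2.81 in WT BCSP of round 2. The round 1 levels were 4.07 CPM in KO SSC, 5.61 in WT SSC, 3.85 in KO BCSP and 5.33 in WT BCSP, again with no overlap (-0.64 ± 0.22, adjusted p = 0.236). Bub1b, which encodes the checkpoint protein BUBR1, stood at 7.98 CPM in KO SSC, 13.9 in WT SSC, 10.7 in KO BCSP and 19.2 in WT BCSP of round 2. Against that stood round 1, with 20.6 CPM in KO SSC, 20.9 in WT SSC, 13.6 in KO BCSP and 17.3 in WT BCSP, with the WT BCSP library of round 2 above that of round 1 (-0.54 ± 0.22, adjusted p = 0.334).

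Genes of the APC/C step and of passage out of mitosis gave 0 calls. Cdc20 stood at 21.2 CPM in KO SSC, 24.8 in WT SSC, 21.1 in KO BCSP and 46 in WT BCSP of round 2. For round 1 they were 43.1 CPM in KO SSC, 41.9 in WT SSC, 29.4 in KO BCSP and 28.5 in WT BCSP. WT BCSP of round 2 was its highest library of all, and the log2 fold change was -0.40 ± 0.23 (edgeR adjusted p = 0.574). Ube2c stood at 8.01 CPM in KO SSC, 14 in WT SSC, 11.8 in KO BCSP and 21.9 in WT BCSP of round 2. In round 1 the values were 21.8 CPM in KO SSC, 25.8 in WT SSC, 14.8 in KO BCSP and 20.9 in WT BCSP, with WT BCSP again higher in round 2 than in round 1 (-0.64 ± 0.22, adjusted p = 0.221). Cdca3 had a log2 fold change of -0.52.

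At the centromere and kinetochore, Nuf2 stood at 4.74 CPM in KO SSC, 7.79 in WT SSC, 6.98 in KO BCSP and 8.05 in WT BCSP of round 2. Round 1 libraries held 12.2 CPM in KO SSC, 15.1 in WT SSC, 8.58 in KO BCSP and 13.3 in WT BCSP. The rounds did not overlap, and its adjusted p fell just outside the threshold (-0.83 ± 0.20, edgeR adjusted p = 0.0501, against 0.0476 for Cdk1 just inside). Cenpa, the histone that marks centromeres, stood at 10.1 CPM in KO SSC, 11.5 in WT SSC, 11 in KO BCSP and 18.7 in WT BCSP of round 2. The round 1 levels were 22.4 CPM in KO SSC, 19.3 in WT SSC, 15.3 in KO BCSP and 19.7 in WT BCSP, with WT BCSP of round 2 beside the round 1 levels (-0.61 ± 0.19, adjusted p = 0.152). Cenpe, a kinetochore motor, stood at 6.8 CPM in KO SSC, 9.34 in WT SSC, 8.56 in KO BCSP and 4.33 in WT BCSP of round 2. Against that stood round 1, with 13.4 CPM in KO SSC, 14.3 in WT SSC, 8.96 in KO BCSP and 15 in WT BCSP. Its lowest library was WT BCSP of round 2 (-0.86 ± 0.24, adjusted p = 0.104). Cenpf, a large protein of the outer kinetochore, and Ndc80, the partner of the Nuf2 protein, had -0.61 and -0.51. In the chromosomal passenger complex, Birc5 (survivin) stood at 6.01 CPM in KO SSC, 10.9 in WT SSC, 7.07 in KO BCSP and 15.1 in WT BCSP of round 2. For round 1 they were 18.3 CPM in KO SSC, 18.4 in WT SSC, 12.1 in KO BCSP and 13.7 in WT BCSP, with WT BCSP of round 2 above that of round 1 (-0.75 ± 0.23, adjusted p = 0.159), and Cdca8 (borealin) had -0.62.

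Of the 6 kinesins, Kif11, the motor that pushes spindle poles apart, stood at 12.7 CPM in KO SSC, 16 in WT SSC, 16.1 in KO BCSP and 12.9 in WT BCSP of round 2. In round 1 the values were 25.9 CPM in KO SSC, 27.5 in WT SSC, 17.7 in KO BCSP and 25.4 in WT BCSP. It had no overlap between rounds (-0.73 ± 0.18, edgeR adjusted p = 0.059). Kif2c, a microtubule depolymerase at centromeres, stood at 3.5 CPM in KO SSC, 5.39 in WT SSC, 4.63 in KO BCSP and 8.21 in WT BCSP of round 2. Round 1 libraries held 7.44 CPM in KO SSC, 6.27 in WT SSC, 5.1 in KO BCSP and 8.96 in WT BCSP. Round 2 was lower in all 4 groups, by 1.08 on the log2 scale in KO SSC and by 0.22 or less in the others, and the log2 fold change was -0.39 ± 0.21 (adjusted p = 0.542). Kif20a, a motor of the central spindle, stood at 5.75 CPM in KO SSC, 8.35 in WT SSC, 6.89 in KO BCSP and 13.6 in WT BCSP of round 2. The round 1 levels were 12 CPM in KO SSC, 11.5 in WT SSC, 8.94 in KO BCSP and 11.1 in WT BCSP, again with WT BCSP of round 2 as the highest library (-0.40 ± 0.21, adjusted p = 0.523). Kif4, a motor on chromosome arms, Kif20b, a motor of late cytokinesis, and Kif23, a motor of the central spindle, had -0.72, -0.78 and -0.50, and of these Kif4 and Kif23 did not overlap.

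Among spindle proteins, Nusap1, which bundles spindle microtubules, stood at 7.18 CPM in KO SSC, 12 in WT SSC, 11.3 in KO BCSP and 12.6 in WT BCSP of round 2. Against that stood round 1, with 18.1 CPM in KO SSC, 20.8 in WT SSC, 15.4 in KO BCSP and 19 in WT BCSP. The rounds did not overlap. It averaged 10.8 ± 2.44 CPM in round 2 and 18.3 ± 2.24 CPM in round 1 (SD, n = 4 each), which is -0.79 ± 0.18 on the log2 scale (SE; edgeR adjusted p = 0.0406). Tpx2, the activator of Aurora A on the spindle, stood at 15.4 CPM in KO SSC, 21.7 in WT SSC, 19.5 in KO BCSP and 34.7 in WT BCSP of round 2. For round 1 they were 39.7 CPM in KO SSC, 36.8 in WT SSC, 28.2 in KO BCSP and 36 in WT BCSP, with WT BCSP hardly differing between rounds (-0.68 ± 0.19, adjusted p = 0.114). Hmmr, a spindle protein, Prc1, which bundles the central spindle, and Ckap2l, a spindle pole protein, had -0.78, -0.45 and -0.51. For cytokinesis, Racgap1, which forms the centralspindlin complex with the kinesin encoded by Kif23, stood at 15.5 CPM in KO SSC, 24.8 in WT SSC, 19.7 in KO BCSP and 33.6 in WT BCSP of round 2. In round 1 the values were 40.4 CPM in KO SSC, 37.3 in WT SSC, 29.4 in KO BCSP and 28.7 in WT BCSP, with WT BCSP once more higher in round 2 (-0.58 ± 0.21, adjusted p = 0.271). Ect2, the exchange factor that starts the furrow, had -0.59 without overlap, and Anln, a scaffold of the contractile ring, had -0.51.

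**Figure D2:**
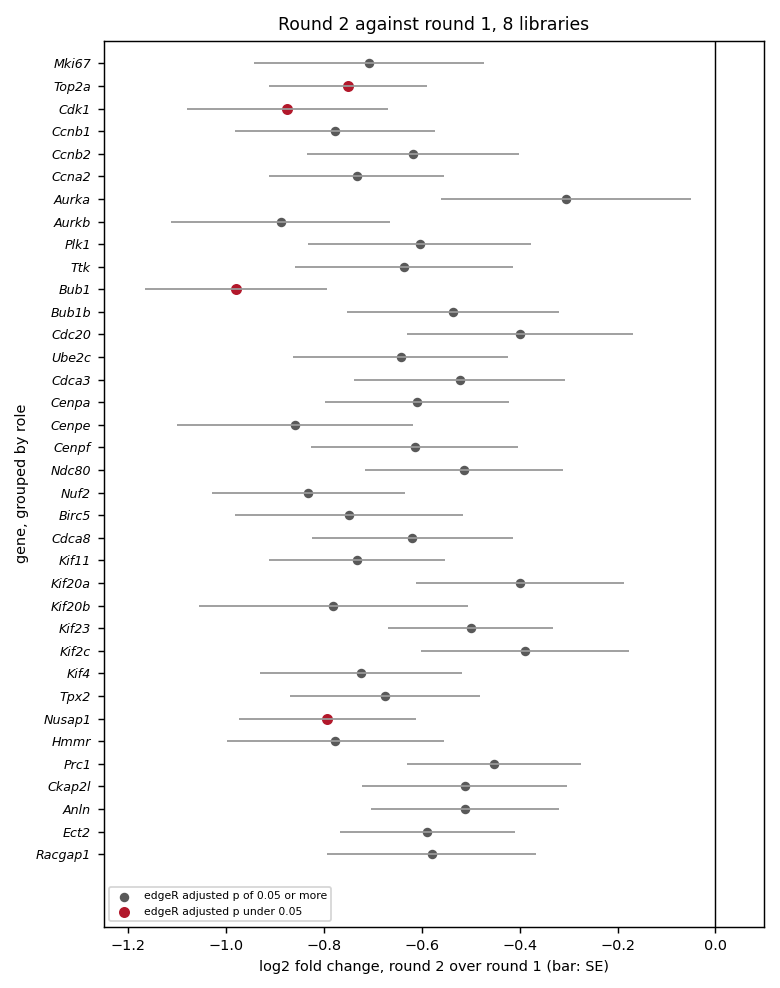
Points are log2 fold changes of round 2 over round 1 from the edgeR model over 8 libraries, bars are standard errors, and red points passed an adjusted p of 0.05. All 36 points lie below 0, from -0.98 (Bub1) to -0.31 (Aurka), and the 4 called genes come from 4 different roles.

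**Figure D3:**
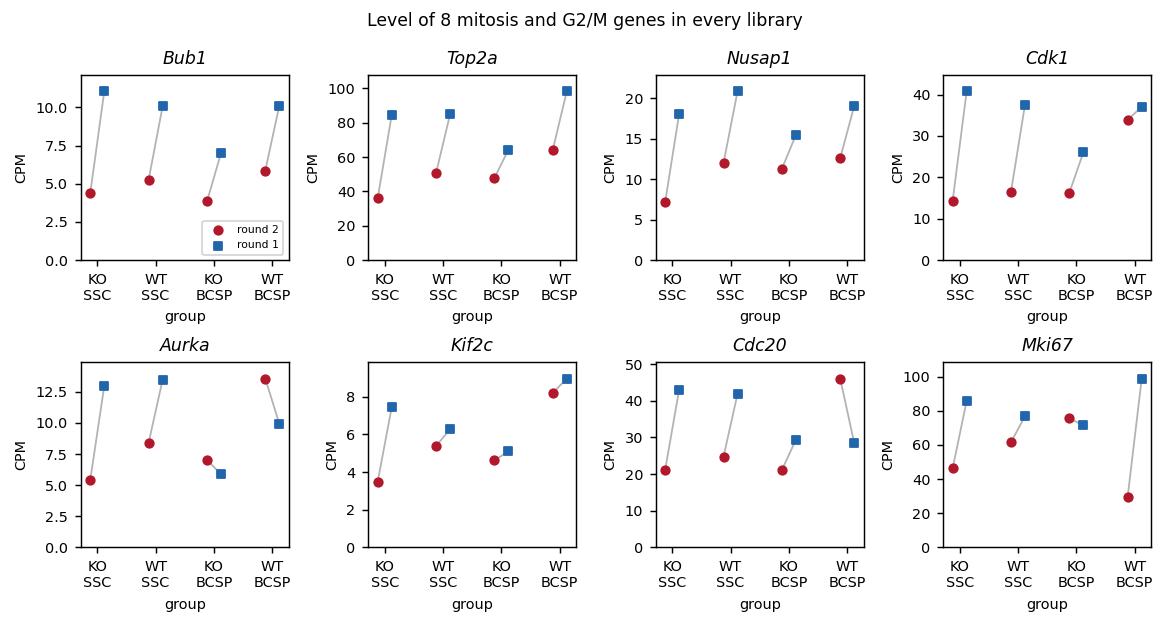
CPM of 8 of the genes in every library, with round 2 as red circles and round 1 as blue squares, joined within a group. Bub1, Top2a and Nusap1 are lower in round 2 in all 4 groups, while Aurka and Cdc20 in WT BCSP, Aurka in KO BCSP and Mki67 in KO BCSP run the other way.

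The size of the difference varied with the population. Within SSC, both round 2 libraries lay below both round 1 libraries for 36 of the 36 genes, against 23.5% of all genes, and the median difference was -1.28 on the log2 scale in KO SSC and -0.67 in WT SSC. All 36 were below 0 in each, against 48.9% and 49.5% of all genes. Within BCSP that held for 13 genes, against 14.3% of all genes; the medians were -0.32 in KO BCSP (28 of 36 below 0, against 49.2% of all genes) and -0.27 in WT BCSP (25 of 36, against 47.5%). WT BCSP ran from -1.79 for Cenpe to 0.69 for Cdc20. When the difference between the populations was itself tested, 34 of the 36 genes had a more negative value in SSC, against 48.2% of all genes, with a median of -0.64. None of the 36 and none of the 22153 genes passed edgeR's adjusted p, while 11 of the 36 had an unadjusted p under 0.05 in that direction, against 0.524% of all genes, led by Aurka (-1.32 ± 0.42, adjusted p = 1). That test was chosen after the data had been seen, and its values went with exon length, as given below.

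The call of the 4 genes depended on single libraries. Without KO SSC of round 1 none of the 36 genes passed (median -0.44), when 1.47% of all genes did, and without any 1 of the other 3 SSC libraries only Bub1 did. Without WT BCSP of round 1 there were 32 calls among the 36 and without WT BCSP of round 2 there were 33, when 15.8% and 15.5% of all genes were called. Without KO BCSP of round 1 there were 16 and without KO BCSP of round 2 there were 17, when 1.81% and 2.15% of all genes were called. Every one of these fits kept the median below 0, and all but 1 gene in 1 fit stayed lower in round 2.

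Exon length went with the scatter in both populations, with the opposite sign in WT BCSP. The 36 genes have 1531 (Ccnb2) to 15433 (Cenpf) bases of exon, and libraries differ in how long and short genes fare over the whole genome. In WT BCSP of round 2 the Spearman correlation between exon length and a gene's deviation from its mean over libraries was -0.70 over the 36 genes and -0.49 over 12307 genes of at least 1 CPM, and in KO BCSP of round 2 it was 0.62 and 0.35. Genes share these libraries, so the values are a description. Among the 12 longest of the 36, which include Mki67, Cenpe and Cenpf, 11 were lower in round 2 of WT BCSP (median -0.73), and among the 12 shortest, which include Cdc20, Aurka and Ube2c, 5 were (median 0.05). In KO BCSP the order turned, at -0.07 for the 12 longest and -0.46 for the 12 shortest. In SSC the 12 longest were at -1.01 and the 12 shortest at -1.34 in KO SSC, and at -0.60 and -0.76 in WT SSC, with all 12 of each below 0. Over the 4 groups the round difference had a correlation with length of -0.10 among the 36 genes and 0.05 among all. For the difference between the populations in the round effect, tested above, it was 0.72 and 0.40. Taken by group, the round difference had 0.46 and 0.13 in KO SSC, and 0.39 and 0.29 in WT SSC. In KO BCSP it had 0.45 and 0.31, and in WT BCSP -0.69 and -0.45. The part of length in any of these values was not tested.

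**Figure D4:**
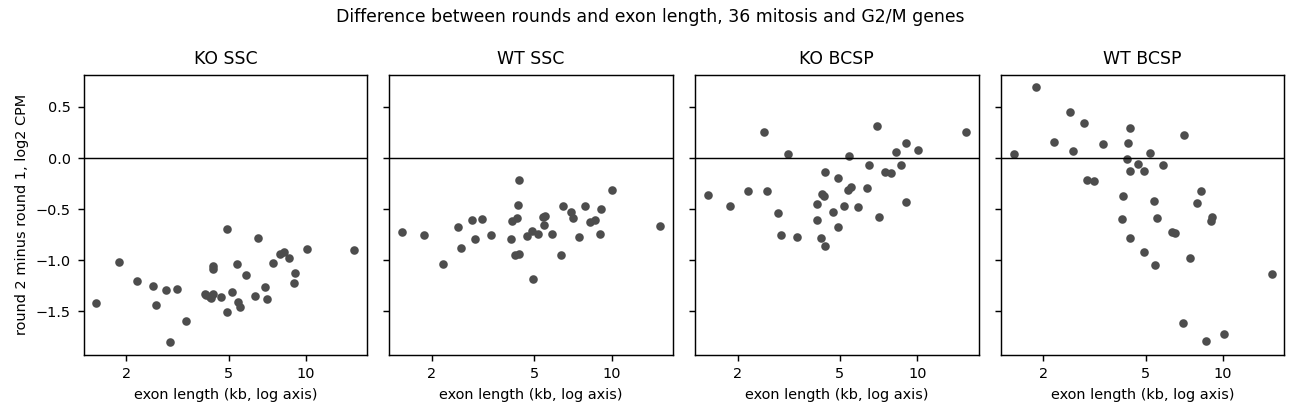
Each point is 1 of the 36 genes, with exon length in kilobases on a log axis and the difference between the round 2 and the round 1 library of a group in log2 CPM. In KO SSC and WT SSC all points lie below 0 at every length, whereas in WT BCSP 11 of the 12 longest and 5 of the 12 shortest genes lie below 0.

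Markers of some blood cells also went with the round, although at low levels. Summed over 10 neutrophil genes the level was 0.147 to 1.64 CPM in round 2 and 12 to 188 CPM in round 1, over 10 erythroid genes 2.95 to 5.66 and 5.84 to 41.4 CPM, and over 9 lymphoid genes 9.31 to 16.2 and 23.4 to 60.1 CPM, with no overlap between rounds in any of these sums. Other blood sums overlapped. Over 9 macrophage and osteoclast genes they were 43.6 to 71.2 CPM in round 2 and 60 to 78.8 CPM in round 1. Over 8 mast cell and megakaryocyte genes they were 2.79 to 5.35 and 1.69 to 3.68 CPM. Defining genes were near 0: Ptprc (CD45) reached at most 1.08 CPM in any library. KO SSC and WT SSC of round 1, 1 library each, had means of the 36 genes of 4.32 and 4.29 log2 CPM and neutrophil sums of 12 and 188 CPM. Of 8 osteoblast markers, 8 were lower in round 2 and 4 were called, when 49.9% of all genes were below 0 and 0.664% were called lower. Their sums overlapped, at 1838 to 2513 CPM in round 2 and 2135 to 3169 CPM in round 1. Of 8 chondrocyte markers 7 were below 0 and 0 were called. Marrow stromal markers went the other way, with 5 of 6 above 0 and 1 called higher. Of 6 skeletal muscle markers tested 4 were below 0, and 1 was called higher. Over all 22153 genes 243 were called higher. Hoxd13, a patterning gene of the distal limb, stood at 0 to 0.349 CPM in round 2 and 18.6 to 27.2 CPM in round 1. The part of any of these in the round difference was not tested.

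The main question of the design was the loss of Tet1. In SSC, 29 of the 36 genes were lower in KO than in WT, against 48.6% of all genes, with a median log2 fold change of -0.16, against 0.01 for all genes; 0 of 36 passed edgeR's adjusted p (0.00451% of all genes, 1 gene, was called) and 0 had an unadjusted p under 0.05, against 1.20% of all genes. No gene of the list was without overlap between the genotypes, against 13.1% of all genes that were lower without overlap. The 3 genes with the lowest p were Ttk (2.5 and 4.07 CPM in KO SSC of rounds 2 and 1, against 3.4 and 5.61 CPM in WT SSC of the same rounds), Ube2c (8.01 and 21.8 CPM in KO SSC of rounds 2 and 1, against 14 and 25.8 CPM in WT SSC of the same rounds) and Nuf2 (4.74 and 12.2 CPM in KO SSC of rounds 2 and 1, against 7.79 and 15.1 CPM in WT SSC of the same rounds). Their log2 fold changes were -0.45 ± 0.42, -0.42 ± 0.41 and -0.44 ± 0.44, each with an adjusted p of 1. Within round 2 all 36 genes were lower in KO SSC than in WT SSC (median -0.49), against 49.7% of all genes, from -0.85 for Birc5 to -0.13 for Ndc80. Within round 1 only 15 of 36 were (median 0.07), against 49.3% of all genes. Leaving out KO SSC of round 2 turned the median to 0.32, with 1 gene below 0, and leaving out WT SSC of round 1 turned it to 0.17, with 1 below 0. It was -0.91 without KO SSC of round 1 and -0.42 without WT SSC of round 2, with 36 below 0 in both.

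In BCSP KO was below WT for 34 of the 36 genes, against 49.2% of all genes, with a median of -0.42; Mki67 and Cenpf were the exceptions. None passed edgeR's adjusted p (0.00451% of all genes, 1 gene, was called lower), and 2 had an unadjusted p under 0.05, against 2.96% of all genes lower at that level. Those were Kif2c, with 4.63 and 5.1 CPM in KO BCSP of rounds 2 and 1, against 8.21 and 8.96 CPM in WT BCSP of the same rounds, and Aurka, with 7.03 and 5.88 CPM in KO BCSP of rounds 2 and 1, against 13.5 and 9.94 CPM in WT BCSP of the same rounds. For both, the KO libraries lay below the WT libraries, at log2 fold changes of -0.82 ± 0.35 (adjusted p = 0.686) and -0.86 ± 0.39 (adjusted p = 0.686). Kif20a came next, with 6.89 and 8.94 CPM in KO BCSP of rounds 2 and 1, against 13.6 and 11.1 CPM in WT BCSP of the same rounds and a log2 fold change of -0.64 ± 0.35 (adjusted p = 0.686). These fits held no term for the round. With that term added, 13 of the 36 were lower in KO BCSP at an edgeR unadjusted p under 0.05, against 4.93% of all genes. None of the 36 passed the adjusted p there (lowest 0.522). In SSC the added term gave 0 of the 36 at that unadjusted p, against 0.912% of all genes lower. For 15 of the 36 genes the genotypes did not overlap, with KO lower each time, against 16.4% of all genes. In round 2 the median KO minus WT difference was -0.58 with 25 of 36 below 0, against 46.4% of all genes, from -1.12 for Cdc20 to 1.34 for Mki67. In round 1 it was -0.39 with 34 of 36 below 0, against 48.8% of all genes. The sign was below 0 in both rounds for 23 genes and differed between rounds for 13, among them Mki67, Cenpe, Kif20b and Cenpf. Length went with the round 2 difference: the 12 shortest genes had a median of -0.92 with 12 below 0, the 12 longest had 0.13 with 3 below 0, and the Spearman correlation was 0.71 over the 36 genes and 0.48 over all. In round 1 the 12 shortest had a median of -0.31 and the 12 longest -0.55. Without WT BCSP of round 1 the median over both rounds was -0.19 with 23 genes below 0, without KO BCSP of round 2 it was -0.21 with 33, and without KO BCSP of round 1 it was -0.68 with 34.

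Markers of several other cell types, but not of all, also went with the genotype in BCSP, most of them at low levels. Summed over 10 neutrophil genes the level was 1.49 and 51.8 CPM in KO BCSP of rounds 2 and 1, against 0.328 and 14.3 CPM in WT BCSP of the same rounds. All 10 were above 0 as log2 fold changes (median 2.07). Over 7 endothelial genes it was 3.87 and 2.57 CPM in KO BCSP, against 1.80 and 1.62 CPM in WT BCSP, with Pecam1 at no more than 0.837 CPM in any BCSP library. Of the 6 endothelial genes tested 5 were above 0 (median 3.13). Over 6 marrow stromal genes it was 199.1 and 172.2 CPM in KO BCSP, against 149.8 and 137.1 CPM in WT BCSP, with 6 of 6 above 0 (median 0.40). Over 8 mast cell and megakaryocyte genes it was 5.35 and 3.68 CPM in KO BCSP, against 2.79 and 1.69 CPM in WT BCSP, and over 9 skeletal muscle genes it was 9.06 and 8.41 CPM in KO BCSP, against 25.6 and 12.1 CPM in WT BCSP. The KO and WT sums of these endothelial, marrow stromal, mast cell and muscle genes did not overlap. Over 6 genes of pericytes and smooth muscle it was 989.6 and 945.8 CPM in KO BCSP, against 961.5 and 820.7 CPM in WT BCSP, with 6 of 6 above 0 (median 0.81) and the sums overlapping. Of the 6 skeletal muscle genes tested in BCSP, 3 were below 0. Of the 6 lymphoid genes tested 5 were below 0 (median -0.68), and of 8 macrophage and osteoclast genes 3 were (median 0.26). All 8 erythroid genes tested were above 0 (median 0.51). Over all genes 49.2% were below 0. In SSC 10 of 10 neutrophil genes were below 0 in KO. None of the genes of these lists was called in either population, and the part of any of them in the genotype values was not tested.

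Over both populations, KO was below WT for 35 of the 36 genes, all but Mki67, against 48.4% of all genes, and the median was -0.29. These values went with exon length, at a Spearman correlation of 0.58 over the 36 genes and 0.36 over 12307 genes. The part of length in them was not tested. The median ran from -0.60 without KO SSC of round 1 to -0.09, with 27 genes below 0, without KO SSC of round 2. For 0 of them were the genotypes without overlap, against 2.25% of all genes that were lower without overlap. None passed edgeR's adjusted p, when 0.0135% of all genes (3 genes) did, and none had an unadjusted p under 0.05, against 3.96% of all genes lower at that level. Aurka (-0.56 ± 0.27, adjusted p = 0.637), Ube2c (-0.55 ± 0.28, 0.639) and Kif2c (-0.46 ± 0.25, 0.651) had the lowest p. The model behind these values took SSC and BCSP libraries as independent, although the labels do not say whether both populations came from the same animals. Its p-values are therefore not those of independent animals. The model also held no term for the round. With that term added, 10 of the 36 were lower in KO at an edgeR unadjusted p under 0.05, against 5.61% of all genes. None of the 36 passed the adjusted p there (lowest 0.351). The difference between the KO effect in SSC and in BCSP was above 0 for 31 of the 36 genes, against 52.9% of all genes (median 0.31), and 0 of 36 genes and 0 of all genes passed. Kif2c (0.73 ± 0.49), Cenpa (0.62 ± 0.51) and Aurka (0.61 ± 0.54) led it, all with an edgeR adjusted p of 1, and intervals this wide do not show that the effects are alike. Its sign rested on single libraries: the median was -0.52 with 35 genes below 0 without KO SSC of round 1, and -0.02 with 20 below 0 without WT SSC of round 2. This difference of effects had a Spearman correlation with exon length of -0.49 over the 36 genes and -0.35 over 12307 genes.

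**Figure D5:**
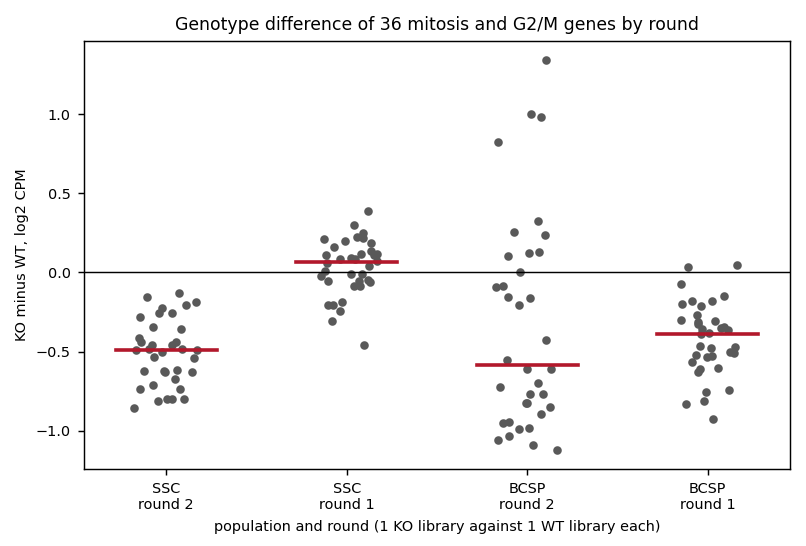
Each point is 1 of the 36 genes, as the log2 CPM of 1 KO library minus that of the WT library of the same population and round, and red bars are medians. Medians are -0.49 in SSC of round 2, 0.07 in SSC of round 1, -0.58 in BCSP of round 2 and -0.39 in BCSP of round 1, so only SSC of round 1 lies about 0.

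Between the populations no direction was common to these genes. SSC was below BCSP for 14 of the 36 and above it for 22, with a median of 0.05, and 48.2% of all genes were below 0. With library totals in place of TMM factors 3 of 36 were below, but the median of all genes moved too, from 0.01 to 0.08. The median of the 36 less that of all genes was 0.04 with TMM factors and 0.05 with library totals. None passed edgeR's adjusted p (0.00451% of all genes did), and for 0 were the populations without overlap, against 1.05% of all genes lower and 1.48% higher. Kif2c (-0.20 ± 0.25), Aurka (0.20 ± 0.27) and Cenpe (0.25 ± 0.34) had the lowest p, each with an adjusted p of 1. Without KO SSC of round 1 the median was -0.25 with 35 genes below 0, without WT SSC of round 1 it was -0.09 with 24, and without KO SSC of round 2 it was 0.24 with 1. The direction went with the round: in KO libraries 34 of the 36 genes were lower in SSC than in BCSP in round 2 (median -0.37), and 0 of 36 were lower in round 1 (median 0.55). Over all genes 10385 and 10481 of 22153 were lower. In WT libraries 27 of the 36 were lower in round 2 (median -0.35) and 12 in round 1 (median 0.07), against 10404 and 10816 of 22153. The WT differences went with exon length, at Spearman correlations of 0.67 over the 36 genes and 0.49 over 12307 genes in round 2. In round 1 they were -0.58 and -0.31. In KO they were -0.28 and -0.26 in round 2, and -0.35 and 0.06 in round 1. The part of length was not tested.

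Further genes of the same machinery were also mostly below 0 between the rounds. Of 92 other genes of mitosis and G2/M, 86 were below 0, 46 had an unadjusted p under 0.05 in that direction and 3 were called, with a median of -0.49. Over all genes those shares were 49.9%, 4.85% and 0.664%. Shcbp1, a protein of the midbody, stood at 3.16 to 4.0 CPM in round 2 and 4.88 to 8.93 CPM in round 1 (edgeR adjusted p = 0.0281). Ncapg, a condensin subunit, and Mastl, the Greatwall kinase that holds back the phosphatase opposing CDK1, fell by 0.97 and 0.96 on the log2 scale (adjusted p = 0.0456 and 0.046). Between genotypes over both populations 71 of the 92 were below 0, against 48.4% of all genes, and none was called. Ccnf, a cyclin that marks proteins for destruction, ran against the list at 8.65 and 10.5 CPM in KO SSC of rounds 2 and 1, against 6.13 and 6.03 CPM in WT SSC of the same rounds, and its log2 fold change over both populations was 0.47 ± 0.19 (adjusted p = 0.614).

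Genes of S phase, in which DNA is copied, were counted beside them. Of 30, 27 were below 0 between rounds with a median of -0.42, 13 had an unadjusted p under 0.05 and 1 was called: Rrm2, a subunit of ribonucleotide reductase, at -0.83 ± 0.17 (edgeR adjusted p = 0.0211). All genes gave 49.9% below 0, 4.85% at that p and 0.664% called lower. By group, 28 of the 30 were below 0 in KO SSC, 28 in WT SSC and 27 in KO BCSP. The shares over all genes were 48.9%, 49.5% and 49.2%. In WT BCSP 10 of the 30 were below 0 (median 0.10), against 47.5% of all genes. The summed level of the 36 mitotic genes as a percentage of that of the 30 S phase genes was 95.6 in KO SSC, 110.2 in WT SSC, 115.9 in KO BCSP and 94.0 in WT BCSP of round 2, against 155.9 in KO SSC, 136.2 in WT SSC, 111.0 in KO BCSP and 129.0 in WT BCSP of round 1. The ratio was lower in round 2 in KO SSC, WT SSC and WT BCSP, and higher in KO BCSP. In the comparison of genotypes over both populations 28 of the 30 S phase genes were below 0, against 48.4% of all genes, with a median of -0.31.

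Regulators of G2/M transcription came next. Of 21, 16 were below 0 between rounds, against 49.9% of all genes, and 1 was called (0.664% of all genes were called lower), Rbl1, which encodes the pocket protein p107, at 9.8 CPM in KO SSC, 9.85 in WT SSC, 9.57 in KO BCSP and 10.1 in WT BCSP of round 2. Round 1 libraries held 16.4 CPM in KO SSC, 17.6 in WT SSC, 16 in KO BCSP and 17.5 in WT BCSP (-0.78 ± 0.16, edgeR adjusted p = 0.0221). Foxm1 stood at 9.37 CPM in KO SSC, 14.6 in WT SSC, 13.2 in KO BCSP and 14.5 in WT BCSP of round 2. The round 1 levels were 25.2 CPM in KO SSC, 20.4 in WT SSC, 18.6 in KO BCSP and 18.3 in WT BCSP, with a log2 fold change of -0.68 that did not pass. Mybl2, which encodes B-MYB, had -0.43, and Rbl2, which encodes the p130 of the DREAM complex, had 0.21. Of 14 targets of p53 and inhibitors of CDKs, 6 were below 0 and 1 was called (1.76% of all genes were called in either direction), Gadd45a, which rose: it stood at 78.6 CPM in KO SSC, 49.2 in WT SSC, 73 in KO BCSP and 56.6 in WT BCSP of round 2. Against that stood round 1, with 33.5 CPM in KO SSC, 43 in WT SSC, 37.7 in KO BCSP and 33.5 in WT BCSP (0.78 ± 0.18, adjusted p = 0.0367).

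The genes whose log2 CPM most resembled the mean of the 36 over the 8 libraries, among 12603 genes of at least 1 CPM, were led by Rad21, the cohesin subunit cut at anaphase (r = 0.996). Rad21 stood at 67.5 CPM in KO SSC, 85.7 in WT SSC, 80.2 in KO BCSP and 97.2 in WT BCSP of round 2. For round 1 they were 119 CPM in KO SSC, 117 in WT SSC, 89.6 in KO BCSP and 115 in WT BCSP. Ska2, Nynrin, Exosc1 and Spc25 followed (r = 0.979, 0.972, 0.967 and 0.964). Of the first 15, 7 belonged to the 92 other genes of mitosis, which make up 0.730% of the genes compared.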

How the data were processed

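Bulk RNA of sorted femoral cells was sequenced as 8 libraries (paired reads of 150 bases, per the labels). The authors deposited whole-number counts per gene. The submitters' processing notes list mm10, STAR, featureCounts and DESeq2; versions, annotation and strand of counting are not given in the sources used here, so overlapping antisense transcripts cannot be told apart. Columns spelled SCC and BCP were taken as SSC and BCSP, each of which has exactly 1 matching title.

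Counts were tested with edgeR 4.0.16 (R 4.3.3, limma 3.58.1, and data.table, version 1.17.8): TMM scaling, a filterByExpr filter (minimum count 10, minimum total 15), a robust quasi-likelihood fit to all 8 libraries, and Benjamini-Hochberg adjustment over 22153 genes, which held 99.9854% of counts. The comparisons within a population and their difference used 1 mean per group (4 residual degrees of freedom), those over populations or genotypes an additive model (5), and the round a model of group and round (3). All took the 8 libraries as independent, and no label says whether SSC and BCSP came from the same animals. A call is an adjusted p under 0.05. Totals were 104782544 to 168004119 counts, so counting error is small beside the spread between libraries. CPM, RPKM (GENCODE M21 exon lengths) and differences of single libraries were computed from the counts, with TMM factors of 0.854 to 1.06 and a prior count of 2 in log2 values.

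Promoters were read from a RefSeq table of build GRCm38.p6. Members, roles and lists were chosen with earlier results of these data known, so no test over a list is given. Values in every library are given for the 3 members of lowest p in each of 6 comparisons and the member of highest RPKM in each role; Mki67, and other genes printed outside these, were chosen after their values were seen. The titles name the round, and each group holds 1 library of each. No label says that a round was a shared litter, batch or day. Alternatives were DESeq2 1.42.0 and its size factors, library totals, no filter, limma-voom, the round as a block, and leaving out libraries. In data simulated for 22153 genes, the comparison of genotypes in SSC recovered 28 of 100 genes changed 2-fold and 91 of 100 changed 4-fold, with 7 false calls, and that of rounds 59 and 98, with 6. Genes were simulated independently, from 1 mean per gene and the spread of the model of 4 groups. Apart from the changed genes, no difference by round, population or exon length was put in. The real libraries hold such differences, so recovery in them may differ.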

Additional observations from a re-analysis of the deposited data

Results flagged for a closer look

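Of 120 sets of 4 libraries examined (20 genes and sums in 6 sets each), 2 held a library far from the other 3, and chance flags about 1 in 20 such sets. Cenpa stood at 11.5 CPM in WT SSC of round 2, against 18.7 to 19.7 CPM in the other WT libraries. Tpx2 stood at 21.7 CPM in the same library, against 34.7 to 36.8 CPM in the other 3.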

How the results depend on the processing

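In no setting tried was any of the 36 genes called between genotypes, in the difference of the genotype effects or between populations; over all genes those counts moved. With no filter on low counts 4 genes were called for KO against WT in SSC, 38 in BCSP and 234 over both populations, and 66 between populations. DESeq2 called 9, 20, 103 and 39. Library totals and limma-voom each called 1 over both populations, and the 4 SSC libraries alone gave 0 in SSC. Without both BCSP libraries of round 2, 11 were called over both populations and 36 between populations, and Cenpe turned to -0.10 in SSC minus BCSP. Same-numbered libraries were checked for pairing: differences between rounds correlated at 0.059 (KO BCSP with WT BCSP) to 0.645 over 12639 genes between pairs of groups, not over 0.1 in every pair, and no label says what a round shared. Over the 36 genes WT BCSP had -0.36 with KO SSC, -0.23 with WT SSC and -0.48 with KO BCSP. The pairs without WT BCSP had 0.45 to 0.55 over the 36 genes. With the round as a replicate block, 2 genes were called in SSC, 3 in BCSP, 2 in the difference of effects, 28 over both populations and 2 between populations, none of them among the 36, with medians of the 36 at -0.21, -0.43, 0.27, -0.32 and 0.00. At an unadjusted p under 0.05 the block gave 13 of the 36 lower in KO BCSP (4.93% of all genes; lowest adjusted p 0.522) and 10 over both populations (5.61%; 0.351), against 2 and 0 without it. For the round difference, calls over all genes and among the 36 were 219 and 1 with library totals, 861 and 22 with no filter, 937 and 14 with DESeq2, and 446 and 8 with limma-voom. They were 1856 and 33 without both BCSP libraries of round 2 (median -0.96), 1955 and 33 in the 4 SSC libraries (median -0.96), and 49 and 0 in the 4 BCSP libraries (median -0.34). Leaving out each library in turn gave 275 to 3909 calls, 0 to 33 of the 36 and medians of -0.77 to -0.44. The same gave 1 to 4 calls and medians of -0.91 to 0.32 for KO in SSC, 1 to 2 and -0.68 to -0.19 in BCSP, 0 and -0.52 to 0.76 for the difference of effects, 1 to 12 and -0.60 to -0.09 over both populations, and 1 to 3 and -0.25 to 0.24 between populations. Single genes that turned were Ube2c (-1.32 to 0.12) and Nuf2 (-1.27 to 0.12) for KO in SSC, Cenpa (-0.075 to 1.05) and Aurka (-0.16 to 1.07) in the difference of effects, and Aurka (-0.16 to 0.39) and Cenpe (-0.021 to 0.67) between populations. In these fits a group left with 1 library was taken to vary like the others. The causes were not tested. At the depth of these libraries the lowest count of any of the 36 genes was 333.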
